A study of Homo sapiens with 6 samples.

Results

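Skipped exons of genes for ubiquitin conjugation, ubiquitin ligation and deubiquitination were examined in MDA-LM2 cells, a human breast cancer line selected for spread to the lung. The genes were taken by name, as protein-coding genes whose symbols start with UBE2 or UBE3, or with RNF, TRIM, FBXO, FBXL or USP and a digit, without USP39 and TRIM33. An annotated skipped-exon event was a member when its middle exon lay in such a gene on the same strand, with at least 20 informative reads in the control pool and in at least 1 knockdown pool. A read is informative here when it fits 1 of the isoforms alone, the one with the exon (an inclusion read) or the one without it (an exclusion read). In all, 381 of 47986 events qualified, and they held 338 exons under 121 gene symbols. Of these symbols 3 are readthrough genes, RNF103-CHMP3, TRIM39-RPP21 and UBE2F-SCLY, whose 8 exons lie in the partner gene and passed in no comparison. Only 2 of the 8 had reads enough to be tested in siSNRPA1 against siCtrl.

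Cells were transfected with small interfering RNAs in lipid, total RNA was taken 48 h later, and stranded libraries were made. The siSNRPA1 group had 3 libraries with SNRPA1 silenced, a component of the U2 particle of the spliceosome, known as U2-A'. The siSNRPB group had 1 library with SNRPB silenced, which encodes Sm proteins common to the spliceosomal particles, and the siCtrl group had 2 libraries with control siRNA. The series names 3 siRNAs against SNRPA1 and 2 against SNRPB without tying them to libraries. The authors deposited 1 summary per group, so each group is 1 pool, no value has a replicate, and every test below compares the reads of 2 pools rather than the conditions.

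Ubiquitin is passed from an activating enzyme (E1) to a conjugating enzyme (E2, the UBE2 genes) and, with a ligase (E3), onto a substrate. UBE3 genes encode ligases of the HECT type, most RNF and TRIM genes encode ligases with a RING domain, and FBXO and FBXL genes encode F-box proteins, which bring substrates to cullin-RING ligases. USP genes encode ubiquitin-specific proteases, which take ubiquitin off again. Skipping of a coding exon can remove residues or shift the reading frame.

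Informative reads over the member events numbered 113042 in siSNRPA1, 54414 in siSNRPB and 82169 in siCtrl. Over all events they numbered 7831446, 3396043 and 5707839 in the same order. Reads of the SNRPA1 events came to 21.9 per 1000000 in siSNRPA1, 272 in siSNRPB and 118 in siCtrl, and those of the SNRPB event to 337, 30.6 and 247, so each target was lowest in the pool named for it. In bulk RNA, fewer cells that express a gene and less RNA per cell cannot be told apart. Of markers of the line, CD44 had 60613 and AXL 2542 reads over their events in siCtrl. The luminal genes ESR1, PGR, FOXA1 and GATA3 had 51, 11, 96 and 284, and CDH1, the epithelial cadherin, had 20, while VIM, CAV1, MSN, ERBB3 and EPCAM had no event.

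The coding exons on which the account mostly turns are shown here, from GENCODE 29 transcripts on hg38, 5′ to 3′ on the strand of the gene. In UBE2F the longer of 2 overlapping forms is given, with the shorter form in capitals and the added bases in lower case. In the other exons capitals mark the last 3 bases, which border the 5′ splice site.
UBE2F, 101 nt, chr2:238016533-238016633, plus strand: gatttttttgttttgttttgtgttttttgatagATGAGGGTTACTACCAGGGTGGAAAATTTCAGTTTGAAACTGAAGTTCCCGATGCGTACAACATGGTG
UBE2J2, 131 nt, chr1:1267862-1267992, minus strand: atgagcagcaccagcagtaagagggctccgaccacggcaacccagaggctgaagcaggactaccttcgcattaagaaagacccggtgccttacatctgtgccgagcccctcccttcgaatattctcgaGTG
RNF4, 160 nt, chr4:2512438-2512597, plus strand: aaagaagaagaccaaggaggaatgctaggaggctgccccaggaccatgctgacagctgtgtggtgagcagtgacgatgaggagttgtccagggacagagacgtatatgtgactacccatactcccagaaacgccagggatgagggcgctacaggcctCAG
USP4, 89 nt, chr3:49278814-49278902, minus strand: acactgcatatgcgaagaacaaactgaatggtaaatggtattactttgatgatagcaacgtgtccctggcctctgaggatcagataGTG
UBE2Q2, 105 nt, chr15:75859878-75859982, plus strand: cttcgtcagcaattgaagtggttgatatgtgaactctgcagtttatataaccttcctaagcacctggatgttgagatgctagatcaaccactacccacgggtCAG
RNF121, 121 nt, chr11:71990597-71990717, plus strand: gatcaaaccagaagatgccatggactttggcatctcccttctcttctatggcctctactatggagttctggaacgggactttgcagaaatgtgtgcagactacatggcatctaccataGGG
These are the coding exons that passed in both knockdowns against siCtrl. The first 3 bases of the UBE2J2 exon are a start codon in transcripts where the exon is coding. All but UBE2Q2 have a length that is not a multiple of 3.

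Member exons ranged in control cells from mostly skipped to mostly included. The authors' inclusion level, a fraction in which 0 stands for full skipping and 1 for full inclusion, had a median of 0.815 over the 338 exons in siCtrl. It was at least 0.9 in 149 exons and at most 0.1 in 75, and 188 exons had 0 exclusion reads. The UBE2 exons had a median of 0.61 and the USP exons of 0.59, against 0.93 for RNF and 0.895 for TRIM exons. Of the 338 exons 196 lay within coding sequence, 62 were partly coding, 42 lay in 5' UTRs, 5 in 3' UTRs and 24 in noncoding transcripts, and 9 matched no annotated exon. The median exon was 125 nt long.

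The first comparison set siSNRPA1 against siCtrl. Testing required 20 or more informative reads per pool, and 5 or more of each kind when the pools were added up. To pass, an exon needed an adjusted p under 0.05 (two-sided Fisher's exact test on inclusion and exclusion reads, Benjamini-Hochberg across the whole series). It also needed its inclusion level to move by 0.1 or more, the same way as the share of inclusion reads. "Fell" and "rose" are used for exons that passed. Of the 338 member exons 123 were tested, 177 had too few exclusion reads, 34 too few inclusion reads, and 4 too few informative reads in a pool. Among those tested, 14 exons of 9 genes fell, 7 exons of 7 genes rose and 102 did not pass.

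The share that passed, 17.1%, was close to the 17.0% of all 6459 tested exons. Among all tested exons 12.8% fell and 4.18% rose. The median difference was -0.01 in the members and -0.02 over all tested exons. Of the tested members 20 had 0 exclusion reads in siCtrl and entered the test through reads of the knockdown pool, and 5 of these fell. Over all tested exons 798 had 0 exclusion reads in siCtrl, and 253 of them fell.

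The second comparison set siSNRPB against siCtrl, with 81 member exons tested. Of the others 162 had too few exclusion reads, 27 too few inclusion reads, and 68 under 20 informative reads in a pool. In siSNRPB 15 exons of 10 genes fell, 5 exons of 5 genes rose and 61 did not pass. Of the tested members 11 had 0 exclusion reads in siCtrl, and 8 of these fell, so 8 of the 15 falls entered the test through exclusion reads of the knockdown pool. Over all tested exons 325 had 0 exclusion reads in siCtrl, and 192 of them fell. The share that passed was 24.7%, beside 21.3% of all 4244 tested exons, of which 16.7% fell and 4.62% rose. The median difference was -0.01 in both the members and all tested exons. Both comparisons use the same siCtrl pool.

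By family, UBE2 had the most tested exons and the most calls. In siSNRPA1 8 of 46 tested UBE2 exons fell and 2 rose (21.7% passed, beside 17.0% of all tested exons), and in siSNRPB 7 of 34 fell and 2 rose (26.5%, beside 21.3%). Overlapping forms of an exon count separately here though they share exclusion reads. Such forms were among the UBE2 falls, in UBE2F and UBE2J2 in both knockdowns, UBE2Z in siSNRPA1 and UBE2D4 in siSNRPB. RNF exons had 1 fall and 2 rises in 29 in siSNRPA1, and 3 falls and 2 rises in 22 in siSNRPB. TRIM exons had 2 falls and 1 rise in 11 in siSNRPA1, and 0 falls and 1 rise in 5 in siSNRPB. FBXO exons had 1 fall in 10 and 2 falls in 7, and the single tested FBXL exon passed in neither. USP exons had 2 falls and 2 rises in 22 in siSNRPA1, and 3 falls and 0 rises in 12 in siSNRPB. The plot of differences by family shows every tested member.

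**Figure D1:**
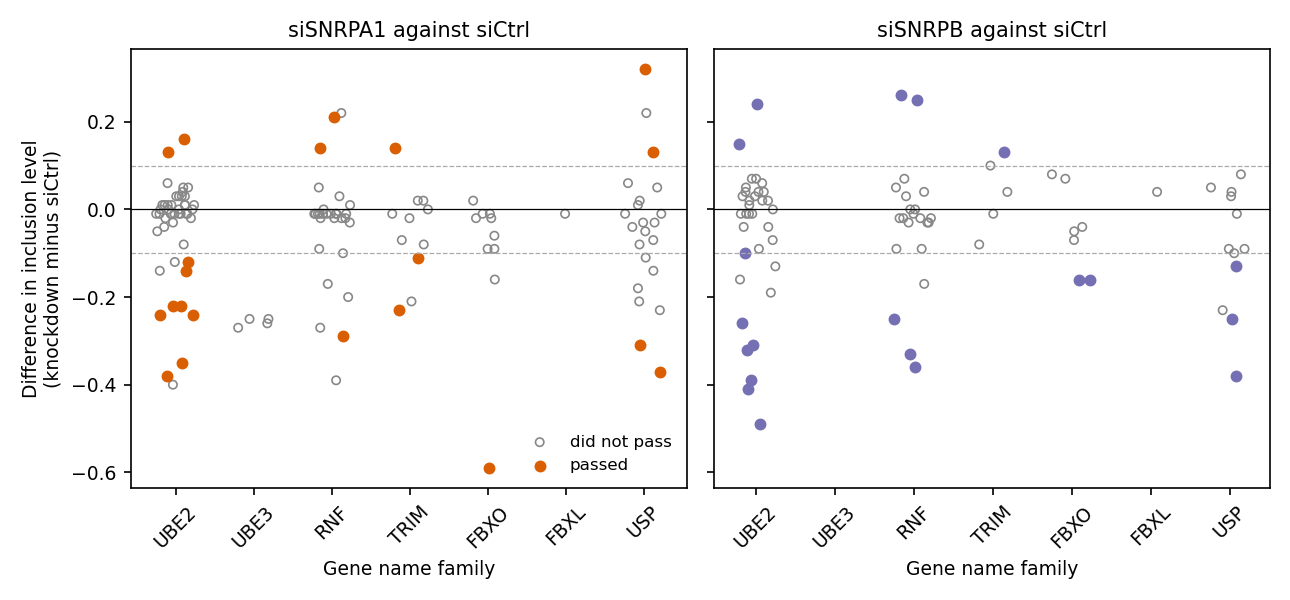
Difference in inclusion level (vertical axis, knockdown minus siCtrl) of each tested member exon by gene name family, for siSNRPA1 on the left and siSNRPB on the right. Filled points passed, open points did not, dashed lines mark differences of 0.1, and the horizontal spread of points is for legibility. Most points lie near 0, and exons fell by over 0.3 in UBE2, FBXO and USP on the left, and in UBE2, RNF and USP on the right.

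Across both comparisons, 10 exons of 8 genes passed in siSNRPA1 and in siSNRPB against the shared siCtrl pool, 6 as falls and 4 as rises. How many of all tested exons passed in both was not counted, so this overlap has no share over the series beside it. Among the conjugating enzymes these were UBE2F, UBE2J2 and UBE2Q2. UBE2F attaches NEDD8, a ubiquitin-like protein, to cullin CUL5. Its 68-nt exon (hg38 chromosome 2, 238016566 to 238016633) encodes codons 72 to 94 of 185. It had inclusion levels of 0.27 in siSNRPA1 (the authors' interval 0.18 to 0.38), 0.26 in siSNRPB (0.12 to 0.42) and 0.65 in siCtrl (0.53 to 0.76). The exon had 23 inclusion reads among 52 in siSNRPA1 (44.2%, 95% Wilson interval 31.6 to 57.7%), 13 of 28 in siSNRPB (46.4%, 29.5 to 64.2%) and 84 of 103 in siCtrl (81.6%, 73.0 to 87.9%). Both knockdown pools were thus well below siCtrl and close to each other, with adjusted p of 1.09e-04 and 2.56e-03 (Fisher's exact test) and differences of -0.38 and -0.39.

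The 101-nt form of the UBE2F exon starts 33 bases further upstream, and those bases end in ag, the letters that usually close an intron. A few stretches of 31 bases, 2 of 38 in the shorter form and 4 of 71 in the longer, also occur in C20orf194. It had inclusion levels of 0.22 in siSNRPA1, 0.15 in siSNRPB and 0.46 in siCtrl and fell in both, by 0.24 and 0.31. The forms share their 29, 15 and 19 exclusion reads in siSNRPA1, siSNRPB and siCtrl, so these calls are not independent. Annotated transcripts that skip the exon are classed as targets of nonsense-mediated decay, the pathway that degrades mRNAs with early stop codons.

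UBE2J2 is anchored in the endoplasmic reticulum and serves the disposal of misfolded proteins. Its 131-nt exon (chromosome 1, 1267862 to 1267992) encodes codons 1 to 44 of 259. The inclusion level was 0.63 in siSNRPA1, 0.66 in siSNRPB and 0.98 in siCtrl. Inclusion and exclusion reads were 321 and 6 in siSNRPA1, 150 and 6 in siSNRPB, and 361 and 0 in siCtrl, so the share of inclusion reads was 98.2%, 96.2% and 100% and moved far less than the inclusion level. Reads that fit both isoforms also enter the inclusion level, and they numbered 671, 271 and 359. Adjusted p were 0.0387 in siSNRPA1 and 3.76e-03 in siSNRPB (Fisher's exact test). A 260-nt form of the exon in the 5' UTR, which shares these exclusion reads, was at 0.21 in siSNRPA1, 0.19 in siSNRPB and 0.45 in siCtrl and fell in both.

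UBE2Q2, a less studied conjugating enzyme, rose in both knockdowns. Its 105-nt coding exon (chromosome 15, 75859878 to 75859982, codons 95 to 129 of 375) had inclusion levels of 0.71 in siSNRPA1, 0.82 in siSNRPB and 0.58 in siCtrl. Inclusion and exclusion reads were 719 and 102 in siSNRPA1, 364 and 27 in siSNRPB, and 451 and 109 in siCtrl. Its differences were 0.13 and 0.24, with adjusted p of 3.32e-03 and 5.62e-07 (Fisher's exact test). Of the 75 stretches of 31 bases in the exon 18 also occur in transcripts of other genes, UBE2Q2 pseudogenes among them, so some reads can be split between copies.

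Among ligases RNF4, RNF121, RNF138 and TRIM16 passed in both. RNF4 adds ubiquitin to proteins that carry SUMO chains. Its 160-nt exon (chromosome 4, 2512438 to 2512597, codons 72 to 125 of 190) had inclusion levels of 0.64 in siSNRPA1, 0.60 in siSNRPB and 0.93 in siCtrl. Exclusion reads were 13 beside 443 inclusion reads in siSNRPA1, 8 beside 206 in siSNRPB and 0 beside 230 in siCtrl. The read shares of 97.1%, 96.3% and 100% lay close together, and no read fitted both isoforms, so the falls of 0.29 and 0.33 are those of the authors' estimate of the level. Adjusted p were 0.025 and 0.0107 (Fisher's exact test), and 28 of 130 stretches of 31 bases recur in another annotated gene. The authors' deposited table gives Bayes factors, the evidence for a difference over that for none, of 9.38 and 31.6.

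The other ligase exons rose. RNF121, a membrane ligase of the endoplasmic reticulum and Golgi, had 0.92 in siSNRPA1, 0.96 in siSNRPB and 0.71 in siCtrl at its 121-nt coding exon (chromosome 11, 71990597 to 71990717). It had 0 exclusion reads beside 110 and 77 inclusion reads in siSNRPA1 and siSNRPB, against 8 beside 60 in siCtrl. The skipping transcript is annotated as protein-coding. RNF138, a ligase of DNA end resection, had 0.85, 0.97 and 0.71 in siSNRPA1, siSNRPB and siCtrl at a partly coding 187-nt exon, with 4, 0 and 12 exclusion reads beside 222, 174 and 146 inclusion reads. TRIM16, which takes part in the removal of damaged membranes, had 0.97, 0.96 and 0.83 at an 856-nt exon, with 0, 0 and 11 exclusion reads. This exon shares 533 of 826 stretches of 31 bases with another annotated gene and overlaps a gene on the other strand, so its value is uncertain. RNF121 and TRIM16 in both knockdowns, and RNF138 in siSNRPB, entered the test through exclusion reads of siCtrl alone, so only a rise could pass. The authors' Bayes factors were under 10 for RNF121 and RNF138 in siSNRPA1 (2.87 and 1.25) and for TRIM16 in siSNRPB (1.93). They were over 10 for each exon in the other knockdown.

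Among deubiquitinases USP4 passed in both. USP4 acts on several signalling proteins and on the splicing factor PRPF3. Its 89-nt exon (chromosome 3, 49278814 to 49278902, codons 882 to 911 of 963) had inclusion levels of 0.40 in siSNRPA1 (the authors' interval 0.30 to 0.51), 0.39 in siSNRPB (0.29 to 0.50) and 0.77 in siCtrl (0.65 to 0.85). Inclusion reads were 39 of 71 in siSNRPA1 (54.9%), 37 of 79 in siSNRPB (46.8%) and 74 of 89 in siCtrl (83.1%). The falls of 0.37 and 0.38 had adjusted p of 1.19e-03 and 1.35e-05 (Fisher's exact test). The read share fell with the level here, as in the 68-nt exon of UBE2F.

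**Figure D2:**
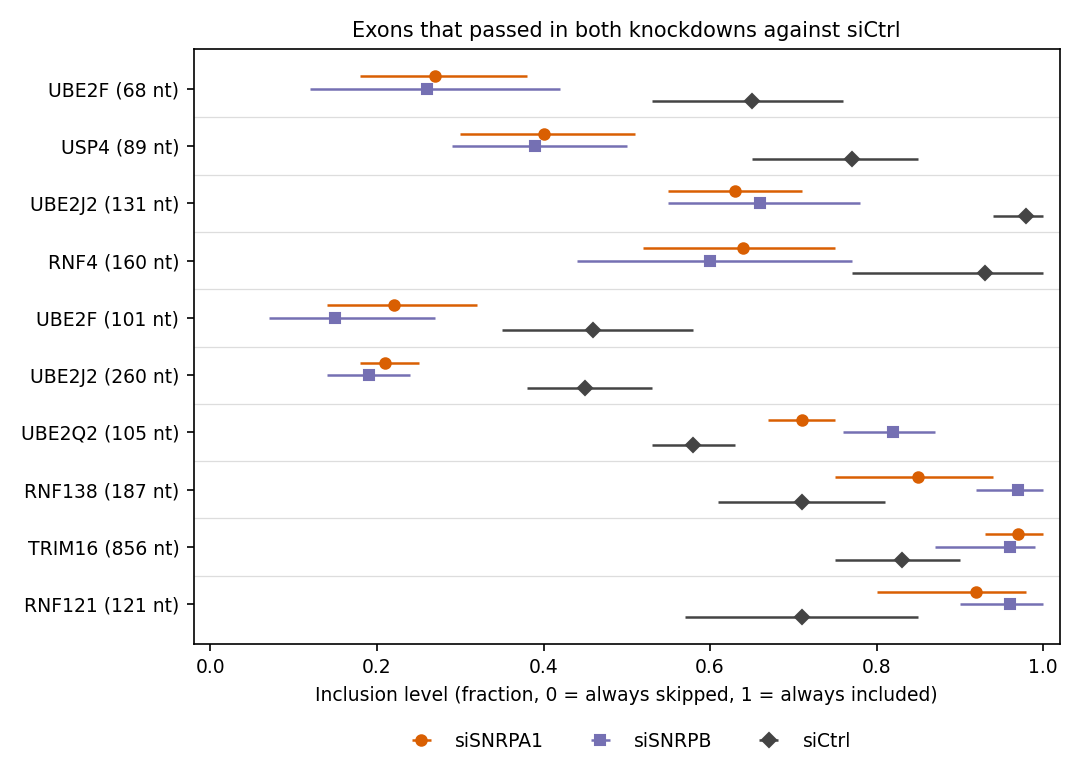
Inclusion level (horizontal axis) in siSNRPA1, siSNRPB and siCtrl of the 10 exons that passed in both knockdowns against siCtrl, 1 row each, with the authors' intervals as bars. Points of both knockdowns lie left of siCtrl in the upper 6 rows and right of it in the lower 4.

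Further exons passed in siSNRPA1 against siCtrl. FBXO4, the receptor of a ligase for cyclin D1, had the largest fall of the members. Its 236-nt coding exon (chromosome 5, 41927013 to 41927248) had inclusion levels of 0.33 in siSNRPA1, 0.52 in siSNRPB and 0.92 in siCtrl. The call rests on few reads, with 17 inclusion and 5 exclusion reads in siSNRPA1 and 38 and 0 in siCtrl (adjusted p = 0.0205, Fisher's exact test), and 7 reads were too few to test siSNRPB. USP28, a deubiquitinase known to stabilise MYC, had 0.31 in siSNRPA1, 0.61 in siSNRPB and 0.62 in siCtrl at a partly coding 363-nt exon. It fell in siSNRPA1 on 30 of 46 inclusion reads against 47 of 53 in siCtrl, and siSNRPB had 11 informative reads.

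UBE2Z, a conjugating enzyme loaded by the E1 enzyme UBA6, had 0.62 in siSNRPA1, 0.65 in siSNRPB and 0.84 in siCtrl at a 132-nt exon of a decay-target transcript. A 188-nt coding form, with the same exclusion reads, had 0.79, 0.80 and 0.93. Both forms fell in siSNRPA1, while in siSNRPB the differences of -0.19 and -0.13 did not pass (adjusted p = 0.119 and 0.125, Fisher's exact test). UBE2V2, a partner of UBE2N without a catalytic cysteine of its own, had 0.05, 0.10 and 0.17 at a 196-nt 5' UTR exon. It fell in siSNRPA1, with 8 inclusion and 13 exclusion reads, against 18 and 2 in siCtrl, and 19 reads were too few to test siSNRPB.

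Rises that passed in siSNRPA1 and not in siSNRPB were in USP15, UBE2T and USP47. USP15 is a deubiquitinase of TGF-beta signalling and a relative of USP4. Its 87-nt exon (chromosome 12, 62349221 to 62349307, codons 228 to 257 of 981) had inclusion levels of 0.91 in siSNRPA1, 0.63 in siSNRPB and 0.59 in siCtrl. Inclusion and exclusion reads were 64 and 1 in siSNRPA1, 26 and 0 in siSNRPB, and 36 and 9 in siCtrl. The rise in siSNRPA1 passed (adjusted p = 7.72e-03, Fisher's exact test). In siSNRPB the level differed by 0.04 while the read share was 100%, and the exon did not pass (adjusted p = 0.0555, Fisher's exact test). The exon is in frame, and it reads as follows, with its last 3 bases in capitals.
USP15, 87 nt, chr12:62349221-62349307, plus strand: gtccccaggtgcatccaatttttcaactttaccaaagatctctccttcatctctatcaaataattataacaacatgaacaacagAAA
UBE2T, the conjugating enzyme of the Fanconi anaemia pathway, had 0.80 in siSNRPA1, 0.63 in siSNRPB and 0.64 in siCtrl at a 70-nt coding exon, with 2, 2 and 7 exclusion reads. USP47, a deubiquitinase of base excision repair, had 0.15, 0.10 and 0.02 at a 60-nt coding exon. Inclusion reads of USP47 were 18 of 94 in siSNRPA1, 7 of 65 in siSNRPB and 1 of 68 in siCtrl. Whether these effects differ between the knockdowns was tested for USP47 alone (adjusted p = 0.326, Fisher's exact test), since USP15 and UBE2T had too few exclusion reads.

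Further exons passed in siSNRPB against siCtrl. UBE2D4, a member of the UBE2D group of conjugating enzymes, had the largest falls. Its 78-nt exon (chromosome 7, 43942954 to 43943031) had inclusion levels of 0.98 in siSNRPA1, 0.54 in siSNRPB and 0.95 in siCtrl, and a 150-nt form had 0.94, 0.40 and 0.89. The forms share exclusion reads, which were 1 in siSNRPA1, 8 in siSNRPB and 0 in siCtrl beside 147, 18 and 57 inclusion reads for the 78-nt form. The exon overlaps POLR2J4 on the other strand, whose reads could not be told apart, as no source used here gives the strand setting of the counting. UBE2K, which builds chains linked through lysine 48, had 0.95, 0.89 and 0.99 at a 129-nt coding exon, with 18 of 469, 20 of 243 and 0 of 273 reads as exclusion. It fell in siSNRPB by 0.1, exactly the minimum. In siSNRPA1 it did not pass, since the level differed by -0.04, under the minimum (adjusted p = 2.37e-03, Fisher's exact test). Between the knockdowns its difference of 0.06 did not pass either (adjusted p = 0.0695, Fisher's exact test).

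USP25, a deubiquitinase, fell at 2 exons in siSNRPB. Its 124-nt exon (chromosome 21, 15777904 to 15778027, codons 90 to 131 of 1055) had inclusion levels of 0.91 in siSNRPA1, 0.73 in siSNRPB and 0.98 in siCtrl, with exclusion reads of 5, 12 and 0 beside 123, 58 and 107 inclusion reads. Its 96-nt exon had 0.08, 0.03 and 0.16, with 11 of 55, 2 of 47 and 17 of 54 inclusion reads. Both differences, -0.25 and -0.13, passed in siSNRPB (adjusted p = 9.33e-05 and 3.27e-03, Fisher's exact test), and neither passed in siSNRPA1.

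RNF19A, a ligase of the RBR type, had 0.25 in siSNRPA1, 0.09 in siSNRPB and 0.45 in siCtrl at its 206-nt exon, annotated as noncoding. Inclusion and exclusion reads were 53 and 4 in siSNRPA1, 7 and 15 in siSNRPB, and 61 and 2 in siCtrl. It fell in siSNRPB (adjusted p = 4.58e-08, Fisher's exact test), as did an overlapping 242-nt 5' UTR form. In siSNRPA1 the differences were -0.20 and -0.27 and did not pass on the reads (adjusted p = 0.567 and 0.551), while the authors' deposited table gives Bayes factors of 13.03 and 46880.

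Of the F-box genes, FBXO28 had 0.88 in siSNRPA1, 0.73 in siSNRPB and 0.89 in siCtrl at a 139-nt coding exon, and FBXO7, a gene linked to inherited parkinsonism, had 0.96, 0.82 and 0.98 at a 143-nt coding exon. Exclusion reads were 3, 10 and 3 for FBXO28 beside 251, 97 and 178 inclusion reads. For FBXO7 they were 6, 10 and 0 beside 341, 121 and 193. Both fell by 0.16 in siSNRPB, and annotated transcripts that skip these exons are decay targets. A longer, 295-nt form of the FBXO7 exon has the same exclusion reads, beside 512 inclusion reads in siSNRPB. Its level differed by only -0.04 there, under the minimum, so it did not pass (adjusted p = 7.61e-04, Fisher's exact test). UBE2G2, another conjugating enzyme of the endoplasmic reticulum, rose in siSNRPB at a 175-nt exon of a decay-target transcript, with 0.23, 0.32 and 0.17 in siSNRPA1, siSNRPB and siCtrl. Its adjusted p, 0.0499 by Fisher's exact test, was at the threshold, and the call was lost with a minimum of 10 reads.

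The third comparison set siSNRPA1 directly against siSNRPB, without the control pool. Of 86 tested member exons 4 were lower and 7 higher in siSNRPA1 by the same rule, and 75 did not pass. The share that passed was 12.8%, beside 14.7% of all 5082 tested exons, of which 6.38% were lower and 8.28% higher. The median difference was 0 in both the members and all tested exons.

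Lower in siSNRPA1 were both forms of a TRIM6 exon, a 33-nt exon of UBE2F and the exon of UBE2Q2. TRIM6 is a ligase of interferon signalling. Its 128-nt 5' UTR exon had inclusion levels of 0.60 in siSNRPA1, 0.87 in siSNRPB and 0.83 in siCtrl, with 125 and 38, 65 and 3, and 131 and 10 inclusion and exclusion reads. The difference of -0.27 between the knockdowns had an adjusted p of 2.57e-03, and the fall of 0.23 against siCtrl one of 1.19e-03 (Fisher's exact test). The 490-nt form shares the exclusion reads and had 0.70, 0.91 and 0.81. Both forms overlap a gene on the other strand and hold stretches of 31 bases also found in TRIM5 and TRIM34.

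The 33-nt coding exon of UBE2F (chromosome 2, 238032222 to 238032254, codons 138 to 148 of 185) had inclusion levels of 0.74 in siSNRPA1, 0.96 in siSNRPB and 0.96 in siCtrl. Inclusion and exclusion reads were 77 and 15 in siSNRPA1, 47 and 0 in siSNRPB, and 75 and 0 in siCtrl. UBE2F thus held exons of both kinds. Its 3 stretches of 31 bases all recur in C20orf194. At the 68-nt exon the knockdowns differed by 0.01, and at the 33-nt exon by -0.22 (adjusted p = 1 and 0.0135, Fisher's exact test). UBE2Q2 was lower in siSNRPA1 than in siSNRPB by 0.11, though it rose in each against siCtrl.

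Higher in siSNRPA1 were both forms of the UBE2D4 exon, by 0.44 and 0.54, and the 124-nt exon of USP25, by 0.18. Also higher were the exons of FBXO28, FBXO7 (143 nt) and RNF19A (206 nt), by 0.15, 0.14 and 0.16. The 242-nt form of the RNF19A exon, which shares the exclusion reads, did not pass. Its level was 0.26 in siSNRPA1 and 0.28 in siSNRPB, a difference of -0.02, while its share of inclusion reads was 94.0% and 66.7% (adjusted p = 2.17e-03, Fisher's exact test), the other direction. The seventh was the 141-nt exon of USP4 (chromosome 3, 49311514 to 49311654, codons 232 to 279 of 963). It had 0.87 in siSNRPA1, 0.55 in siSNRPB and 0.65 in siCtrl, with 131 and 5, 37 and 7, and 60 and 7 inclusion and exclusion reads. The difference of 0.32 between the knockdowns had an adjusted p of 0.0395, and neither knockdown passed against siCtrl (0.139 and 0.525, Fisher's exact test). The exons of UBE2F and USP4 read as follows, with the last 3 bases in capitals, since they behaved unlike the other named exon of the same gene.
UBE2F, 33 nt, chr2:238032222-238032254, plus strand: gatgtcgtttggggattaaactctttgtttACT
USP4, 141 nt, chr3:49311514-49311654, minus strand: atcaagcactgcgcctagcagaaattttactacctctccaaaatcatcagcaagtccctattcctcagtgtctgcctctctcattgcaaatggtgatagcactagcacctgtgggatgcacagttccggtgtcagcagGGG

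**Figure D3:**
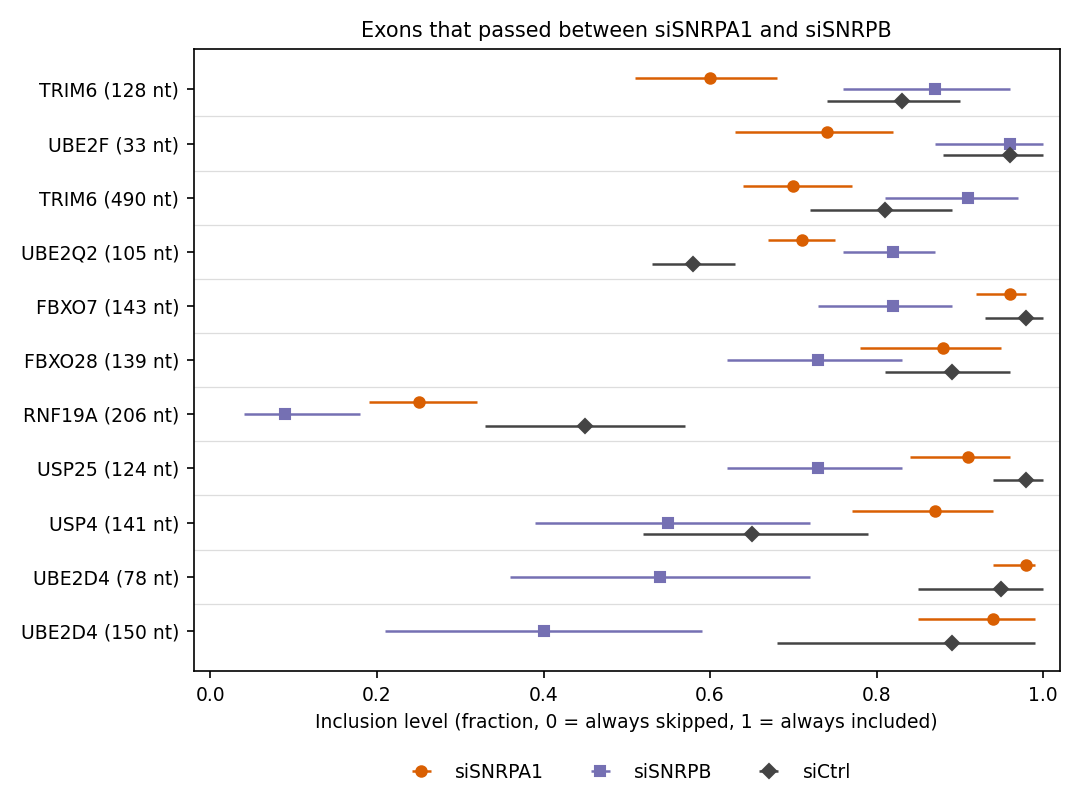
Inclusion level (horizontal axis) in siSNRPA1, siSNRPB and siCtrl of the 11 exons that passed in siSNRPA1 against siSNRPB, 1 row each, with the authors' intervals as bars. In the upper 4 rows siSNRPA1 lies left of siSNRPB and in the lower 7 right of it.

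Many exons with deep reads did not pass. In UBE2C, the conjugating enzyme of the anaphase-promoting complex, a 205-nt exon had 0.93 in siSNRPA1, 0.99 in siSNRPB and 0.96 in siCtrl on 3488, 1673 and 2921 informative reads. TRIM8 had 33 exclusion reads of 3001 informative reads in siSNRPA1, against 0 of 2415 in siCtrl, but its inclusion level of 0.99 against 1.00 stayed under the minimum difference. FBXL5, an iron-sensing receptor, and USP10 were at 0.99 in all 3 pools. The 166-nt exon of RNF4 stood at 1.00 in all 3, beside the fall of its 160-nt exon. The 295-nt form of the FBXO7 exon, which shares the exclusion reads of the 143-nt form, had 0.99, 0.96 and 1.00. In UBE3A, the ligase gene of Angelman syndrome, a 1247-nt exon had levels of 0.71, 0.65 and 0.70 with 0 exclusion reads beside 2589, 1025 and 1443 inclusion reads. This UBE3A exon overlaps SNHG14 on the other strand and shares 304 of 1217 stretches of 31 bases with UBE3AP2. An inclusion level under 1 can thus stand beside no read of a skip. The 4 tested UBE3 exons were forms of 1 UBE3A exon, with differences of -0.25 to -0.27 in siSNRPA1 that did not pass on 5 exclusion reads, against 3 in siCtrl (adjusted p = 0.411 to 0.423, Fisher's exact test).

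Because of this gap, level and read share were set side by side for every tested member. With the read share put in place of the level, 11 of the 21 calls in siSNRPA1 and 12 of the 20 in siSNRPB remained. Other members passed only by read share, so that 15 and 18 passed in all, beside 19.2% and 24.1% of all tested exons. Between the knockdowns 7 of the 11 calls remained, and FBXO28, FBXO7, UBE2Q2 and the 490-nt form of TRIM6 lost theirs. Against siCtrl the calls lost were as follows. UBE2J2, RNF4, RNF138 and TRIM16 lost theirs in both knockdowns. UBE2Q2, UBE2T, UBE2Z and the 490-nt form of TRIM6 lost theirs in siSNRPA1, and FBXO28, FBXO7 and UBE2K in siSNRPB. The exons of UBE2F, the 89-nt exon of USP4 and RNF121 kept the call in each knockdown where they had it.

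**Figure D4:**
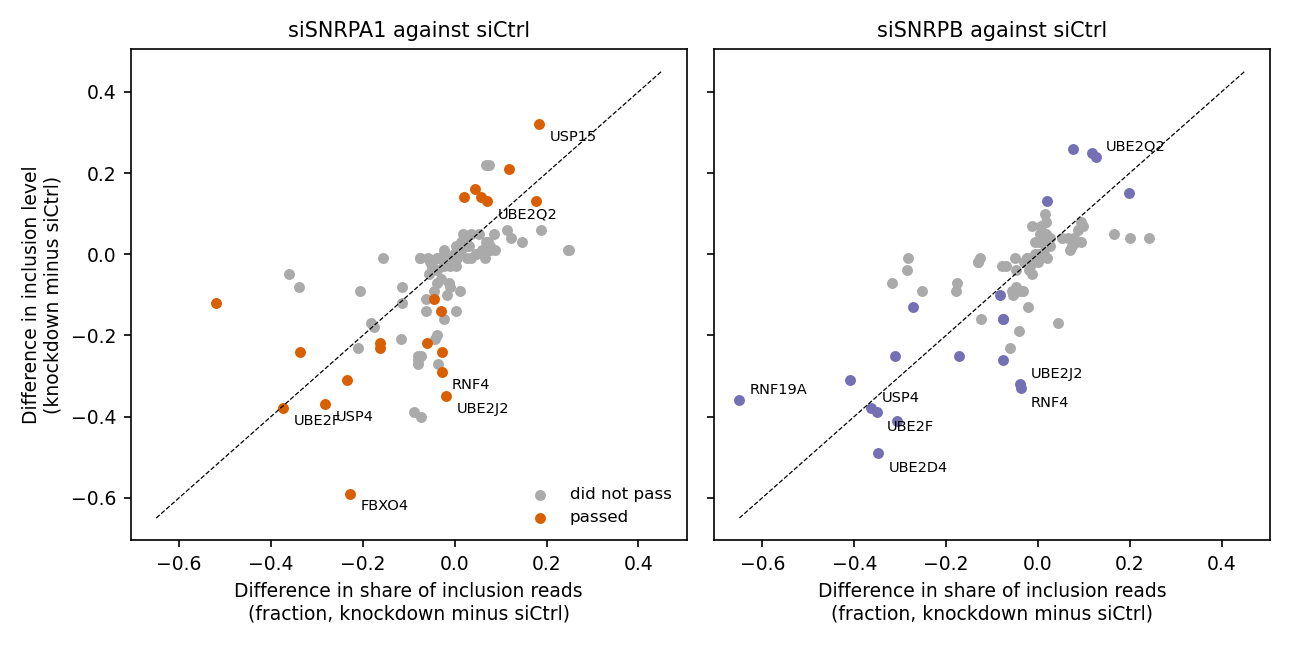
Difference in inclusion level (vertical axis) against difference in the share of inclusion reads (horizontal axis), both knockdown minus siCtrl, for each tested member exon in siSNRPA1 (left) and siSNRPB (right). Coloured points passed, grey ones did not, and the dashed line marks equal differences. UBE2F and USP4 lie near the line, UBE2J2 and RNF4 far below it.

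Features that the choice of genes did not use are given as a description, with no test, and overlapping forms count separately. Of 9 coding exons that fell in siSNRPA1 7 had a length that is not a multiple of 3, and of 11 in siSNRPB 8. Among coding exons that rose these were 2 of 5 and 1 of 2, among coding members that did not pass 24 of 46 and 13 of 31, and among all tested coding exons 1289 of 3013 and 809 of 2044. The median upstream intron in siSNRPA1 was 5673 nt for exons that fell, 6855 nt for those that rose, 2660 nt for members that did not pass and 1959 nt for all tested exons. In siSNRPB these were 5673, 5390, 3045 and 2058 nt, so exons that rose had long upstream introns too. The letters AG closed 5 of 14 exons that fell in siSNRPA1 (35.7%) and 4 of 7 that rose (57.1%). They closed 61.6% of members that did not pass and 55.9% of all tested exons with a sequence. In siSNRPB these were 6 of 15 (40%), 3 of 5 (60%), 65% and 54.8%.

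Other genes of the pathway, whose names the choice above does not cover, were described in 7 lists. In siSNRPA1 29 of 236 tested exons fell and 13 rose (17.8% passed), and in siSNRPB 26 of 148 fell and 6 rose (21.6%), both near the shares over all tested exons. Among E1 enzymes 1 of 13 exons fell and 2 rose in siSNRPA1, and 0 of 6 passed in siSNRPB. Both subunits of the NEDD8 E1 enzyme, the step before UBE2F, were among them, with UBA3 at 0.72 in siSNRPA1 against 0.92 in siCtrl (81 nt) and NAE1 at 0.93 against 0.66 (31 nt).

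Cullin-RING scaffolds, adaptors and other substrate receptors had 10 falls and 4 rises in 52 exons in siSNRPA1, and 7 falls and 0 rises in 27 in siSNRPB. FBXW11, a receptor for beta-catenin, fell at a 63-nt exon (0.46 in siSNRPA1 against 0.82 in siCtrl), and DTL, a receptor acting in DNA replication, at a 126-nt exon (0.52 in siSNRPB against 0.96). HECT and RBR ligases had 0 falls and 1 rise in 22 exons in siSNRPA1, and 3 falls and 3 rises in 16 in siSNRPB, where TRIP12 fell at a 114-nt exon (0.80 against 0.99). Other RING and U-box ligases had 2 falls and 3 rises in 50, and 4 falls and 2 rises in 28. MDM4, a regulator of p53, fell at its 68-nt exon in both, with 0.19 in siSNRPA1, 0.16 in siSNRPB and 0.33 in siCtrl, and MDM2 rose in siSNRPB at a 93-nt exon (0.20 against 0.02).

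Other deubiquitinases had 2 falls in 15 exons and 1 fall in 13, with no rises, and the fall in siSNRPB was in JOSD2 (0.25 against 0.64). The lists of SUMO, NEDD8 and other ubiquitin-like proteins had 9 falls and 1 rise in 38, and 3 falls and 0 rises in 22. SENP2, a SUMO protease, fell at a 67-nt exon to 0.34 in siSNRPA1, against 0.86 in siCtrl, and was lower there than in siSNRPB (0.94). The proteasome and p97 system had 5 falls and 2 rises in 47, and 8 falls and 1 rise in 36. PSMG1, a chaperone of proteasome assembly, fell in siSNRPA1 (0.45 against 0.92) at an exon that matched no annotated one, and PSMB3, a proteasome core subunit, in siSNRPB (0.57 against 0.92) at a partly coding exon. Beside 17.0% and 21.3% of all tested exons, 23.1% and 0% passed in siSNRPA1 and siSNRPB for E1 enzymes, and 26.9% and 25.9% for the cullin-RING list. For HECT and RBR ligases these were 4.55% and 37.5%, for other RING and U-box ligases 10% and 21.4%. Other deubiquitinases had 13.3% and 7.69%, ubiquitin-like proteins 26.3% and 13.6%, and the proteasome and p97 system 14.9% and 25%. Genes named from these lists were picked among the largest changes after their values were seen.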

How the data were processed

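RNA sequencing measured skipped-exon use in 6 libraries of 3 groups, taken from the knockdown label. Per the submitters' processing notes, STAR 2.7 and hg38 were used, with no role stated; column names are those of MISO, whose version, settings and pooling of libraries no source used here gives. Per the file headers, the authors deposited for each group a posterior mean inclusion level (a fraction, rounded to 2 decimals) with interval bounds of unstated width, and reads per isoform class, another text column. The authors also deposited, for each knockdown against siCtrl, a signed difference score and the Bayes factor, a ratio. Recomputed differences matched the score within 0.005 in all 44653 siSNRPA1 and all 38112 siSNRPB events.

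Genes and exons came from GENCODE 29. Events were reduced to 1 per skipped exon, by informative reads, leaving 40658 exons, of which 95.6% matched an annotated exon. For 1 member exon, of USP28, the kept event was not itself a member. Among the family events 281 of 679 had under 20 informative reads in siCtrl and 17 had 20 there but in no knockdown pool. At 17 to 19 reads 21 events had a median inclusion level of 0.22, and at 20 to 22 reads 12 members had 0.58. Reads carry no molecular identifiers, so intervals (Wilson, 95%) and tests cover counting error only. Of the member exons 35 overlap a gene on the other strand and 43 lie in 2 or more same-strand genes.

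Named exons were up to 10 falls and 10 rises per knockdown, 4 each way between knockdowns, 1 per gene, all that passed in both, and per family the deepest that passed in no comparison; further forms of the same exon and a second exon of USP25 were named after their values were seen. Members and lists were chosen with earlier results of these data known. The test was checked on simulated reads in which the level equals the read share and libraries do not vary. It was not checked where level and share differ. Python 3.11.15, scipy 1.17.1, numpy 2.4.6, pandas 2.3.3 and matplotlib 3.10.9 were used. The number of unused columns of per-sample values was 0. Tried alternatives were other read and difference minimums, read shares, Bayes factors, all events, halved counts and no exons with a gene on the other strand.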

Additional observations from a re-analysis of the deposited data

How the results depend on the processing

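Counts of passing member exons in siSNRPA1 against siCtrl, siSNRPB against siCtrl and siSNRPA1 against siSNRPB were 21, 20 and 11. With a difference of at least 0.2 they were 13, 14 and 6, beside 8.58%, 12.1% and 8.26% of all tested exons. With at least 50 informative reads the counts were 17, 12 and 6 of 91, 57 and 63 tested members. Of all tested exons 16%, 19.9% and 12.8% then passed. With read counts divided by 2 and the minimums kept, 68, 41 and 54 members were tested, against 123, 81 and 86 as reported. Some calls were thus lost because the exon could no longer be tested. Of those tested 2, 7 and 0 passed, beside 8.11%, 13.7% and 7.6% of all tested exons. Between the knockdowns 14 members had an unadjusted p under 0.05 (Fisher's exact test). Leaving out exons with an opposite-strand gene gave 18, 17 and 7, beside 16.9%, 21.3% and 14.5% of all tested exons. Under the other alternatives, a minimum of 10 reads, read shares, all events and (against siCtrl) a Bayes factor of at least 10, the counts stayed within 1.5 times, and no call changed sign. The share over all tested exons moved too. With read shares the counts were 15, 18 and 13 of 123, 81 and 86 tested members, beside 19.2%, 24.1% and 17.7% of all tested exons. By read shares 5 differences of named exons that had not passed did change sign, to 0.002 from -0.03 (UBE2C) and 0.005 from -0.01 (FBXO28) in siSNRPA1 against siCtrl, 0.019 from -0.01 (UBE2T) in siSNRPB against siCtrl, and 0.02 from -0.03 (UBE2J2, 131 nt) and -0.022 from 0.01 (UBE2F, 68 nt) between the knockdowns. Under the Bayes factor 13 of the 21 and 17 of the 20 calls remained. Those lost in siSNRPA1 were RNF4, RNF121, RNF138, UBE2T, UBE2V2, USP47, the 490-nt form of TRIM6 and the 188-nt form of UBE2Z. In siSNRPB FBXO28, TRIM16 and UBE2G2 lost theirs. With halved counts the calls kept in siSNRPA1 were UBE2F at 68 nt and USP4 at 89 nt. In siSNRPB both forms of UBE2F then had too few reads to be tested, as they did at 50 reads. No paired analysis was possible because each group has 1 pooled summary, and no replicate could be left out for the same reason. Depth limited the siSNRPB pool most.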
